A study of Mus musculus with 21 samples.

Results

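The 76 genes described here belong to families of glycosyltransferases of the Golgi, the enzymes that start, branch, extend and cap the sugar chains of glycoproteins and glycolipids. They are all the rows of the count table whose symbol begins with St3gal, St6gal, St6galnac, St8sia, B4galt, B3galt, B3gnt, Galnt, Mgat, Fut or Gcnt followed by a digit. The rule uses symbols and no values, although it was set with earlier results of these data known, and 2 of the symbols, B3gnt9-ps and Fut4-ps1, are those of pseudogenes, neither of which had enough counts to be tested. RNA was sequenced from sorted B cells of Peyer's patches (PP, the lymphoid tissue of the small intestinal wall), mesenteric lymph nodes (mLN) and spleen of C57BL/6 mice aged 8 to 12 weeks, in a series on self-reactive B cells. Each tissue has 3 BCL2 HEL pos libraries (922, 926 and 950), 3 HEL pos libraries (Pool, 392 and 399) and a single pooled HEL neg library, which makes 9 groups and 21 libraries. Neither HEL nor BCL2 is expanded in the labels, which also name no promoter, allele or treatment. Nor do they say whether a numbered library is a single mouse, so the p-values cover the spread between libraries, part of which may be technical.

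Sugar chains are built in order along the Golgi. On N-glycans, which hang from asparagine, the Mgat enzymes add the N-acetylglucosamine (GlcNAc) residues that found each antenna, and Fut8 adds a fucose to the core. B4galt and B3gnt enzymes then extend the antenna with galactose and GlcNAc in turn, which gives N-acetyllactosamine and, when repeated, polylactosamine. Sialyltransferases close the chain: St6gal1 adds sialic acid in alpha-2,6 linkage, the St3gal enzymes add it in alpha-2,3 linkage, and the St8sia enzymes join sialic acid to sialic acid. O-glycans, which hang from serine or threonine, are started by the Galnt enzymes with N-acetylgalactosamine (GalNAc) and branched by the Gcnt enzymes. In B cells the alpha-2,6-sialylated N-acetyllactosamine made by St6gal1 is the ligand of CD22, an inhibitory coreceptor of the antigen receptor.

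Library totals ran from 5475131 to 11340876 counts, and 3 counts were worth 0.262 to 0.525 CPM, a floor that covers counting error only. CPM relate the counts of a gene to the total of its library after TMM scaling. Sums over cell type markers, here and below, are instead CPM of plain library totals without that scaling. Transcripts of 7 B cell markers summed to 12245 to 13988 CPM in PP, 11307 to 12425 in mLN and 15990.3 to 17193 in spleen for BCL2 HEL pos libraries. For HEL pos libraries the sums were 11626 to 13502 CPM in PP, 9342 to 10209.6 in mLN and 20742 to 21582 in spleen, so the labelled cell type was present throughout. Gut epithelial markers summed to 16.4 to 157 CPM in PP BCL2 HEL pos libraries, 236 to 1100.0 in PP HEL pos libraries and 1263 in the PP HEL neg pool, and to at most 37.1 CPM in any other library. Among the PP HEL pos libraries, 392 had the lowest such sum. Y-linked transcripts summed to no more than 0.875 CPM in libraries 392 and 399 of each tissue. In the remaining 15 libraries they summed to 95.7 to 164 CPM. Xist, a transcript of the X chromosome, had 79.0 to 360 CPM in those 15 libraries and 236 to 612 CPM in 392 and 399. The 15 libraries, all BCL2 HEL pos libraries among them, thus held both Y-linked transcripts and Xist. Whether this reflects mice of both sexes in a library was not tested.

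Promoter sequence is shown for 6 members, chosen because they passed the test between mLN and spleen HEL pos cells under every alternative setting and had exactly 1 start site window in the RefSeq table. B3gnt5, B3gnt8 and Fut11 were lower in mLN, and B4galt1, St6galnac4 and St8sia6 were higher. Each line gives the 250 bases before the annotated start, 5′ to 3′ on the strand of the gene, from RefSeq on GRCm38.p6, the assembly also called mm10. Capitals mark the GC box GGGCGG or its reverse complement CCGCCC, overlapping matches included. The windows are chr16:19759984-19760233 (plus strand) for B3gnt5, chr7:25627374-25627623 (plus strand) for B3gnt8, chr14:20694718-20694967 (plus strand) for Fut11, chr4:40853985-40854234 (minus strand) for B4galt1, chr2:32586828-32587077 (plus strand) for St6galnac4 and chr2:13793521-13793770 (minus strand) for St8sia6.
B3gnt5: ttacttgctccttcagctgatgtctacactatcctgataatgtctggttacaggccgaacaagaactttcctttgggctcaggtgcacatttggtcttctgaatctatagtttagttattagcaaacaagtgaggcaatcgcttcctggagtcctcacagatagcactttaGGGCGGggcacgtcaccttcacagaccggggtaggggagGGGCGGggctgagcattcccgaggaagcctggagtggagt
B3gnt8: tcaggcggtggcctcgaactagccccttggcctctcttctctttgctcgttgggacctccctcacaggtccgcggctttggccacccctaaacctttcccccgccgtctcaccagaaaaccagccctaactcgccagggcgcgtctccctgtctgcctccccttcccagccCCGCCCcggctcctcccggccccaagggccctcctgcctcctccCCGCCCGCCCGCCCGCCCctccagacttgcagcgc
Fut11: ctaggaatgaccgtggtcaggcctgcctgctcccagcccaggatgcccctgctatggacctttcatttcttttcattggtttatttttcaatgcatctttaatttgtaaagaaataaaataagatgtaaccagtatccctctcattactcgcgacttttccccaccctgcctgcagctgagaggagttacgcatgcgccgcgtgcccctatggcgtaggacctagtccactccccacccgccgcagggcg
B4galt1: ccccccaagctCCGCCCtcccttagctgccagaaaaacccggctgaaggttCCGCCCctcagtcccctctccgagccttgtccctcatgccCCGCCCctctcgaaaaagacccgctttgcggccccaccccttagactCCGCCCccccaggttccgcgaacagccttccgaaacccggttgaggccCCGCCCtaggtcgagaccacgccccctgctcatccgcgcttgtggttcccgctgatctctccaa
St6galnac4: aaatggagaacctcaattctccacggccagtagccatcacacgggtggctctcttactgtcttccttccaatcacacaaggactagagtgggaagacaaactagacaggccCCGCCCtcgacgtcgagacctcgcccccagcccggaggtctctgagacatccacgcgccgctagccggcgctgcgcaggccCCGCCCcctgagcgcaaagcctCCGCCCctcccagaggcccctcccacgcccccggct
St8sia6: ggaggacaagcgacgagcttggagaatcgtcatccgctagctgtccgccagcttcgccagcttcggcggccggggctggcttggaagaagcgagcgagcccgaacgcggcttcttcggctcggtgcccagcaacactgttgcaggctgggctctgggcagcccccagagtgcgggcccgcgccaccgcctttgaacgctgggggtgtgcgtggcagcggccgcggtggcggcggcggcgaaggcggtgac

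B3gnt8 and B4galt1 hold 5 GC boxes each in these windows, St6galnac4 holds 3 and B3gnt5 2, whereas no match was found for Fut11 and St8sia6. Genes that were lower and genes that were higher in mLN thus both include windows with and without the motif. At least 1 GC box on either strand occurs in 32.7% of all 32851 windows of that length, and in 52.6% of the 78 windows of the 54 members with a window. The motif GCGNGGGCG, named for EGR factors, occurs in 4.70% of all windows and 10.3% of those of members. The motif CCGGAAG, named for ETS factors, occurs in 6.91% of all windows and 3.85% of those of members, and CACCC in 52.0% and 65.4%, both strands being searched. A match is a description of letters and not a site.

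Of the 76 members, 46 had enough counts to be tested in the 18 libraries of the BCL2 HEL pos and HEL pos groups, and 47 in at least 1 of the fits used here. Per kilobase of annotated exon and averaged over the 9 groups, the most abundant was Mgat1, which opens the way to complex N-glycans, at 64.3 CPM per kb. St6gal1 followed at 53.1 CPM per kb. B3gnt2, a polylactosamine enzyme, stood at 52.5 CPM per kb, although 66.0% of its exon bases also belong to other annotated genes. Mgat2, which founds the second antenna, stood at 41.1, the glycolipid enzyme B3gnt5 at 37.9, and B4galt1, a main galactosyltransferase of antennae, at 36.8 CPM per kb. B3gnt8, a partner of B3gnt2 in polylactosamine synthesis, had 20.7 CPM per kb. Single libraries ran from 28.0 to 87.3 CPM per kb for St6gal1 and from 34.9 to 70.8 for B3gnt2, so neighbours in this order do not differ beyond the spread over libraries. The length used is that of all annotated exons together, which is longer than single transcripts.

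HEL pos cells of PP and of mLN were each compared with those of spleen, to see which of these genes differ between gut-associated tissue and spleen. In PP, 5 of the 46 tested members were higher and 11 lower (adjusted p under 0.05, edgeR quasi-likelihood test with Benjamini-Hochberg adjustment), where 7.94% of all genes tested were called higher and 7.43% lower, 15.4% together. In mLN, 5 were higher and 13 lower, where 12.9% of all genes tested were called higher and 11.5% lower, 24.5% together. The median log2 change of the members was -0.28 in PP and -0.41 in mLN, against 0.02 and -0.01 over all genes. All called members had groups of libraries that did not overlap. Called or not, 23 of the 46 tested members had no overlap in PP and 31 in mLN. The share over all genes was not computed, so this is no added support for the calls. The same 3 spleen libraries serve both comparisons, so what they have in common is not independent evidence. In such bulk libraries, fewer cells of a type and less RNA per cell cannot be told apart. B cell markers were lower than in spleen for 6 of 7 genes in both tissues, and 10 of 12 tested epithelial markers were higher in PP. Plasma cell markers were higher for 4 of 7 tested genes in PP, and in mLN for 5 of 7, with 1 lower. Their sums were 648 to 742 CPM in PP and 877 to 892 in mLN, against 425 to 539 in spleen. Granulocyte markers summed to 0.297 to 1.49 CPM in PP and at most 0.261 in mLN, against 55.0 to 179 in spleen. The part of these markers in the changes below was not tested.

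Mgat1 was lower in both tissues. It had 221, 259 and 203 CPM in PP and 244, 227 and 218 in mLN, against 395, 319.6 and 312 in spleen (libraries Pool, 392 and 399, the order kept for HEL pos cells). Every PP and mLN library lay below the lowest spleen library. The log2 change was -0.59 ± 0.14 (adjusted p = 0.00460) in PP and -0.56 ± 0.14 (adjusted p = 0.00398) in mLN (± SE, edgeR, as in all fold changes below), and without the pooled libraries the PP call was lost (-0.43, adjusted p 0.0844). Mgat4b, which adds a GlcNAc branch, had 2.79, 1.51 and 2.45 CPM in PP and 2.25, 2.16 and 3.73 in mLN, against 0.448, 0.615 and 0 in spleen, where it was near the floor of 3 counts. It was higher in PP (2.59 ± 0.74, adjusted p = 0.0192) and in mLN (2.88 ± 0.73, adjusted p = 0.00564). The spleen libraries alone would not have had enough counts for Mgat4b to be tested. It could be tested because of PP and mLN libraries, where it is high, so its calls are a description and no support. The PP call of Mgat4b was lost without PP Pool or spleen Pool or 399 (2.05 to 2.80, adjusted p 0.0532 to 0.0719). Its relative Mgat4a did not pass in PP (0.00 ± 0.16, adjusted p = 0.994) or mLN (-0.40 ± 0.16, adjusted p = 0.0814). Mgat2, Mgat5 (the enzyme of the beta-1,6 branch) and Fut8 did not pass either, with log2 changes in mLN of -0.13 ± 0.16 for Mgat2, 0.62 ± 0.25 for Mgat5 and 0.37 ± 0.25 for Fut8 (adjusted p = 0.612, 0.0800 and 0.312).

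The genes that extend antennae split in direction. B4galt1 had 249, 241 and 216 CPM in mLN against 134, 140.0 and 127 in spleen and was higher (0.83 ± 0.13, adjusted p = 7.63e-05). In PP it had 193, 184 and 133 CPM, with library 399 inside the spleen range, and did not pass (0.34 ± 0.13, adjusted p = 0.0847). B3gnt8 had 93.4, 115 and 83.3 CPM in PP and 60.8, 58.5 and 39.4 in mLN, against 189, 227 and 225 in spleen. Its mLN libraries lay below every PP library, and its PP libraries below every spleen library. The log2 change of B3gnt8 was -1.99 ± 0.19 (adjusted p = 2.29e-07) in mLN, the lowest of the 46 members there, and -1.14 ± 0.19 (adjusted p = 0.000279) in PP. Of its exon bases 18.1% lie opposite Bckdha, and whether counting used strand is not given in the sources used here. B3gnt5, which starts lacto-series glycolipids, had 162, 201 and 108 CPM in PP and 137, 130.2 and 141 in mLN, against 229, 272 and 249 in spleen. It was lower in PP (-0.67 ± 0.17, adjusted p = 0.00904) and in mLN (-0.86 ± 0.17, adjusted p = 0.000678); a fit of only the compared libraries ended the PP call (-0.68, adjusted p 0.0685). B3gnt5 was named after its values were seen.

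B4galt5, which makes lactosylceramide, was higher in both tissues. Its level was 20.9, 24.3 and 25.7 CPM in PP and 16.1, 20.3 and 33.8 in mLN, against 8.51, 15.7 and 10.3 in spleen. B4galt5 changed by 1.04 ± 0.29 (adjusted p = 0.0170) in PP, lost without spleen Pool or 399 (0.84 to 0.97, adjusted p 0.0666 to 0.0971), and 1.05 ± 0.29 (adjusted p = 0.00977) in mLN, lost without mLN 399 or spleen Pool (0.68 to 0.85, adjusted p 0.0674 to 0.116). B3gnt7, an enzyme of keratan sulfate chains, had 24.1, 13.1 and 12.1 CPM in PP against 5.37, 3.69 and 4.02 in spleen and was higher (1.90 ± 0.42, adjusted p = 0.00362). In mLN it did not pass (1.08 ± 0.42, adjusted p = 0.0669). B3gnt2 had 189.6, 210.4 and 146 CPM in PP against 234, 245 and 224 in spleen, and its small decrease (-0.37 ± 0.12, adjusted p = 0.0427) was not called without PP 399 or spleen Pool, 392 or 399 (-0.40 to -0.23, adjusted p 0.0651 to 0.220). B3galt4, which makes the ganglioside GM1 and was named after its values were seen, was lower in mLN (-0.82 ± 0.23, adjusted p = 0.0118), a call lost without mLN 392 or spleen 399 (-0.73 to -0.61, adjusted p 0.0592 to 0.0906).

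Among the sialyltransferases, St6gal1 was lower in both tissues. It had 169, 169 and 138 CPM in PP and 187, 166 and 174 in mLN, against 244, 244 and 238 in spleen, where the libraries were nearly equal. The log2 change was -0.61 ± 0.13 (adjusted p = 0.00244) in PP and -0.45 ± 0.13 (adjusted p = 0.0134) in mLN, and the mLN call was lost without mLN 392 (-0.44, adjusted p 0.0525). St3gal1, which caps core 1 O-glycans, was also lower, with 41.9, 55.6 and 27.6 CPM in PP and 47.3, 41.4 and 41.4 in mLN, against 101, 83.2 and 87.8 in spleen. PP library 399 was the lowest of the 9 and PP 392 the highest outside spleen. The log2 change of St3gal1 was -1.12 ± 0.20 (adjusted p = 0.000599) in PP and -1.05 ± 0.20 (adjusted p = 0.000441) in mLN. St3gal6, which sialylates N-acetyllactosamine, was lower in PP (-0.86 ± 0.21, adjusted p = 0.00854) and mLN (-0.97 ± 0.21, adjusted p = 0.00189), and the PP call was lost without the pooled libraries (-0.65, adjusted p 0.129). Dcbld2 lies opposite 26.0% of the exon bases of St3gal6. St6galnac4, which adds sialic acid to the GalNAc of an already sialylated core 1 O-glycan, changed in the other direction. It had 123, 121 and 135 CPM in PP and 139, 181 and 170.0 in mLN, against 85.5, 84.2 and 69.7 in spleen, and was higher in PP (0.66 ± 0.14, adjusted p = 0.00328) and in mLN (1.05 ± 0.14, adjusted p = 1.37e-05).

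St8sia6, which forms disialic acid, was higher in both tissues. It had 39.3, 23.4 and 40.6 CPM in PP and 68.5, 34.6 and 38.7 in mLN, against 20.9, 10.8 and 10.6 in spleen, and mLN Pool was the highest library. St8sia6 changed by 1.74 ± 0.34 (adjusted p = 0.000558) in mLN and 1.26 ± 0.34 (adjusted p = 0.0134) in PP, where it was lost without PP 399 or spleen 392 or 399 (1.08 to 1.14, adjusted p 0.0520 to 0.0702). St8sia4, the polysialic acid enzyme, did not pass in PP (-0.27 ± 0.14, adjusted p = 0.225) or mLN (-0.35 ± 0.14, adjusted p = 0.0794). St3gal4, which sialylates N-acetyllactosamine like St3gal6, overlapped between tissues, with 14.3, 6.19 and 4.72 CPM in PP and 3.25, 4.81 and 3.33 in mLN, against 3.25, 4.92 and 11.3 in spleen. St3gal5, the GM3 synthase gene, was lower in mLN (-1.48 ± 0.51, adjusted p = 0.0391), a call lost without mLN Pool or 392 or spleen Pool, 392 or 399 (-1.57 to -1.21, adjusted p 0.0592 to 0.157), and without mLN 399 the change was -2.22, adjusted p 0.00821. Fut11, a member of the fucosyltransferase family, had 25.2, 25.5 and 15.9 CPM in PP and 33.5, 25.9 and 22.9 in mLN, against 47.2, 44.8 and 44.4 in spleen. It was lower in PP (-1.04 ± 0.19, adjusted p = 0.000822) and in mLN (-0.71 ± 0.19, adjusted p = 0.00722).

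None of the 10 tested Galnt genes, which start O-glycans, was higher in PP or mLN, where 7.94% and 12.9% of all genes tested were, so that with 10 genes none higher is near the background. Of the 10, 3 were lower in PP and 4 in mLN, against 7.43% and 11.5% of all genes tested. Galnt6 had 13.8, 11.5 and 10.9 CPM in mLN against 30.9, 26.5 and 25.7 in spleen and was lower (-1.19 ± 0.20, adjusted p = 0.000129). In PP it had 23.4, 22.9 and 19.2 CPM and did not pass (-0.35 ± 0.19, adjusted p = 0.246). Galnt14 was lower in PP, with 0.883, 0.604 and 1.05 CPM against 3.47, 9.23 and 6.55 in spleen (-2.90 ± 0.76, adjusted p = 0.0121), and was not called without spleen 392 (-2.57, adjusted p 0.0604). The PP libraries alone would not have had enough counts for Galnt14 to be tested. It is among the 3 lower in PP, and its call is a description and no support. Galnt10 was lower in mLN (-1.07 ± 0.29, adjusted p = 0.00871), a call lost without mLN 392 or spleen Pool (-0.84 to -0.73, adjusted p 0.0595 to 0.0853). Galnt2, which shares 90% of its exon bases with other annotated genes, was lower in PP (-0.82 ± 0.27, adjusted p = 0.0422) and not called without PP 399 or spleen Pool, 392 or 399 (-0.85 to -0.47, adjusted p 0.0726 to 0.153). Galnt4 and Galnt11 were named after their values were seen. Galnt4 was lower in PP (-0.87 ± 0.23, adjusted p = 0.0127), a call lost without PP 399 (-0.77, adjusted p 0.0516), and in mLN (-0.94 ± 0.23, adjusted p = 0.00424). Galnt11 was lower in mLN (-0.53 ± 0.19, adjusted p = 0.0455), a call lost without mLN Pool, 392 or 399 or spleen Pool or 392 (-0.60 to -0.36, adjusted p 0.0533 to 0.223). Galnt1 did not pass, at 64.9, 74.3 and 96.6 CPM in PP and 57.8, 52.6 and 71.5 in mLN, against 73.8, 76.8 and 83.6 in spleen. Gcnt1, the core 2 branching enzyme, did not pass in PP (0.36 ± 0.19, adjusted p = 0.214) or mLN (-0.49 ± 0.19, adjusted p = 0.0612).

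In mLN, 12 of the 18 calls were kept under every alternative setting, which included DESeq2, other size factors, no filter on low counts and each library left out in turn. They were B3gnt5, B3gnt8, B4galt1, Fut11, Galnt4, Galnt6, Mgat1, Mgat4b, St3gal1, St3gal6, St6galnac4 and St8sia6. Among them the call of Mgat4b is a description only, for the reason given above. In PP only Fut11 was, because 1 of 16 calls was left in a fit without PP 399 and PP Pool, the libraries with the most epithelial transcripts. That fit leaves PP 392 alone, which is assumed to vary like the other groups, and the members called in PP all had the same sign in it. There the log2 change was -0.85, adjusted p 0.0498 for Fut11, -0.91, adjusted p 0.0517 for B3gnt8, -0.72, adjusted p 0.0790 for St3gal1, -0.53, adjusted p 0.0974 for St6gal1 and 0.59, adjusted p 0.0955 for St6galnac4. B3gnt5 (-0.33, adjusted p 0.346), St8sia6 (0.70, adjusted p 0.415), B3gnt2 (-0.17, adjusted p 0.562) and St3gal1 moved by more than a factor of 1.5. Without the pooled HEL pos libraries alone, 10 of the 16 PP calls were kept, and in a fit of only the compared libraries 11. Same-numbered PP and spleen libraries deviated together, and with library number as a block all 16 PP calls were kept and 5 more members were called, where 20.9% of all genes tested were called. These were B4galt1 (0.33 ± 0.10, adjusted p = 0.0290), Galnt10 (-0.75 ± 0.20, adjusted p = 0.00884), St3gal5 (-1.41 ± 0.45, adjusted p = 0.0289), B3gnt1 (-0.68 ± 0.24, adjusted p = 0.0448) and St3gal3 (-0.90 ± 0.31, adjusted p = 0.0443, edgeR).

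**Figure D1:**
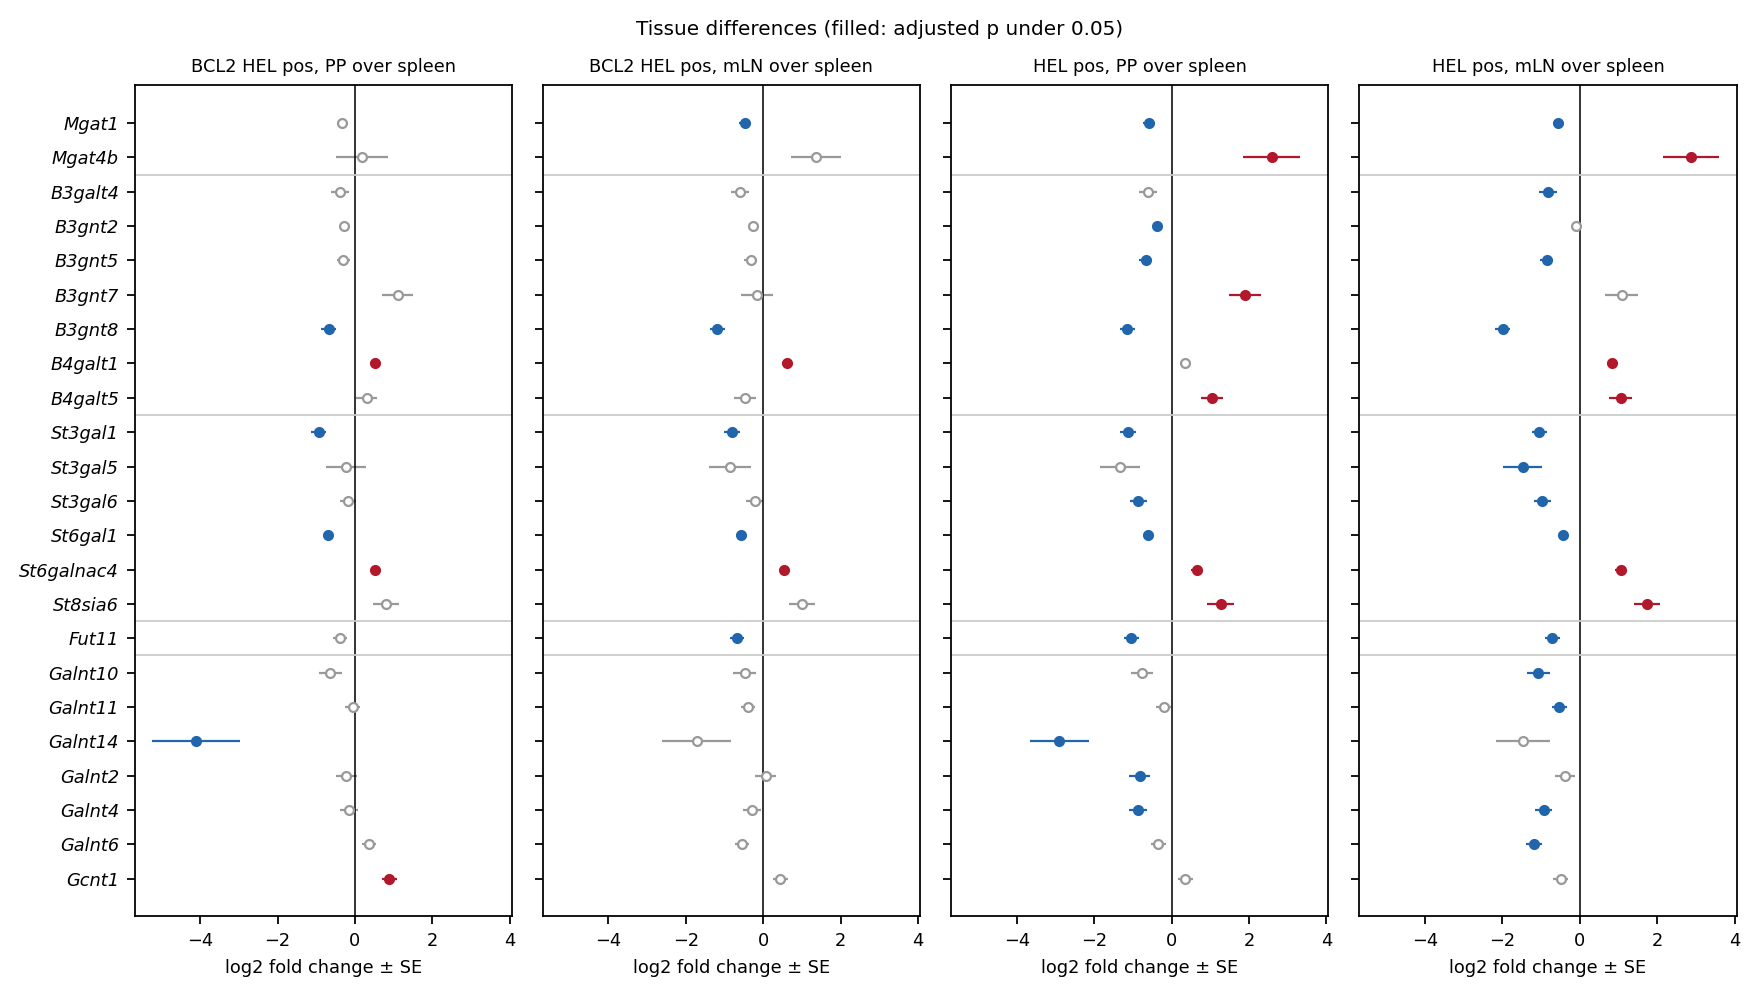
Log2 fold change with its standard error for each member called in at least 1 of 4 tissue comparisons, 1 per panel, with filled points at an adjusted p under 0.05 (edgeR) and grey lines between role blocks. B3gnt8, St3gal1 and St6gal1 lie left of 0 and filled in all 4 panels, and St6galnac4 lies right of 0 and filled in all 4.

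The same tissue comparisons in BCL2 HEL pos cells rest on other libraries. In PP, 3 members were higher and 4 lower, where 4.81% of all genes tested were called higher and 2.53% lower, 7.34% together. In mLN, 2 were higher and 5 lower, where 5.77% of all genes tested were called higher and 4.23% lower, 10.0% together. Median log2 changes of the members were -0.16 in PP and -0.27 in mLN, against -0.02 and -0.02 over all genes. B3gnt8 was lower in both, with 136, 116 and 108 CPM in PP and 97.1, 65.2 and 90.5 in mLN, against 234, 178 and 156 in spleen (libraries 922, 926 and 950, the order kept for BCL2 HEL pos cells). As in HEL pos cells, mLN was below PP and PP below spleen in all libraries. The log2 change was -1.18 ± 0.19 (adjusted p = 0.000306) in mLN and -0.68 ± 0.18 (adjusted p = 0.0260) in PP, where it was lost without PP 926 or 950 or spleen 922 or 926 (-0.72 to -0.50, adjusted p 0.0563 to 0.182). B4galt1 was higher in both, with 185, 199 and 203 CPM in PP and 185, 209 and 226 in mLN, against 129.7, 124 and 147 in spleen. Its log2 change was 0.61 ± 0.13 (adjusted p = 0.00431) in mLN and 0.53 ± 0.13 (adjusted p = 0.0157) in PP, where it was lost without PP 926 or 950 or spleen 922 or 926 (0.48 to 0.52, adjusted p 0.0551 to 0.0914).

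St6gal1 was lower in BCL2 HEL pos cells of both tissues. It had 261, 285 and 206 CPM in PP and 250.2, 304 and 267 in mLN, against 376, 429 and 401 in spleen. The log2 changes of -0.71 ± 0.13 (adjusted p = 0.00136) in PP and -0.57 ± 0.13 (adjusted p = 0.00581) in mLN were called under every alternative setting. St3gal1 had 60.7, 59.7 and 45.0 CPM in PP and 62.2, 46.2 and 70.8 in mLN, against 94.9, 114 and 101 in spleen. It was lower in PP (-0.93 ± 0.20, adjusted p = 0.00471), a call kept under every setting, and in mLN (-0.81 ± 0.20, adjusted p = 0.00988), a call lost without mLN 926 or spleen 926 (-0.73 to -0.65, adjusted p 0.0582 to 0.0907). St6galnac4 was higher, with 103, 107 and 90.5 CPM in PP and 107, 100.3 and 95.8 in mLN, against 80.4, 55.3 and 70.0 in spleen, library 926 of spleen being the lowest. Its change in PP (0.53 ± 0.14, adjusted p = 0.0273) was not called without PP 922 or 926 or spleen 926 or 950 (0.39 to 0.55, adjusted p 0.0645 to 0.176), and that in mLN (0.55 ± 0.14, adjusted p = 0.0173) without mLN 922 or 926 or spleen 926 (0.41 to 0.55, adjusted p 0.0606 to 0.125). Gcnt1 was higher in PP, with 69.3, 64.2 and 48.2 CPM against 36.1, 31.7 and 28.6 in spleen (0.89 ± 0.19, adjusted p = 0.00476), a call kept under every setting. In mLN it had 47.4, 48.3 and 36.4 CPM, and the change from spleen did not pass (0.44 ± 0.19, adjusted p = 0.159).

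Mgat1 was lower in mLN than in spleen BCL2 HEL pos cells, with 300.3, 259 and 284 CPM against 405, 394 and 365 (-0.48 ± 0.14, adjusted p = 0.0262). The call of Mgat1 was lost without mLN 926 or 950 or spleen 922, 926 or 950 (-0.52 to -0.42, adjusted p 0.0509 to 0.150). Fut11 was lower there too, with 27.9, 34.8 and 33.9 CPM against 48.3, 54.2 and 49.7 (-0.67 ± 0.19, adjusted p = 0.0233), and was not called without mLN 922, 926 or 950 or spleen 922, 926 or 950 (-0.73 to -0.58, adjusted p 0.0516 to 0.113). In PP neither Mgat1 (-0.33 ± 0.13, adjusted p = 0.167) nor Fut11 (-0.38 ± 0.18, adjusted p = 0.250) passed. Galnt14 was called lower in PP, where the 3 libraries held 1 count in all against 22 in spleen. That ratio of 0.0395 has a 95% exact counting interval of 0.000956 to 0.244. The interval covers counting error only, and 17 of the 22 spleen counts came from library 926. The call was lost without PP 926 or 950 or spleen 926 (-3.74 to -2.74, adjusted p 0.110 to 0.276). Galnt14 could be tested because of the HEL pos libraries, so this call is a description and no support. Epithelial markers were higher in PP for 7 of 12 tested genes and B cell markers lower in both tissues for 3 of 7. Of 7 plasma cell markers, 2 were higher and 1 lower in PP, and 4 were higher and 1 lower in mLN. The part of these markers was not tested.

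In BCL2 HEL pos cells same-numbered libraries of PP and spleen, and of mLN and spleen, deviated together as well. With library number as a block, 12 members were called in PP in place of 7, where 12.2% of all genes tested were called, and 10 in mLN in place of 7, where 15.5% were. The members added in PP were Galnt12 (-1.25 ± 0.27, adjusted p = 0.00408), B3gnt7 (1.13 ± 0.30, adjusted p = 0.0141), St8sia6 (0.77 ± 0.23, adjusted p = 0.0357), Galnt10 (-0.63 ± 0.20, adjusted p = 0.0453) and Mgat1 (-0.34 ± 0.11, adjusted p = 0.0485, edgeR). Those added in mLN were St8sia6 (0.98 ± 0.23, adjusted p = 0.00583), Galnt6 (-0.58 ± 0.17, adjusted p = 0.0249) and Gcnt1 (0.44 ± 0.14, adjusted p = 0.0426). St8sia6 was thus higher in both tissues in that fit, as in HEL pos cells.

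PP was also compared with mLN. In BCL2 HEL pos cells 1 member was higher and none lower, where 0.806% of all genes tested were called higher and 0.350% lower, 1.16% together. At an unadjusted p under 0.05 there were 5 members in that comparison, and DESeq2 called 1, without the matching shares of all genes. In HEL pos cells 3 members were higher and 2 lower, where 5.34% of all genes tested were called higher and 3.52% lower, 8.86% together. Epithelial markers were higher in PP for 5 of 12 tested genes in BCL2 HEL pos cells and 10 of 12 in HEL pos cells. In HEL pos cells 3 of 7 B cell markers were higher too. Of 7 plasma cell markers, 2 were lower in PP in BCL2 HEL pos cells, and 3 were lower and 1 higher in HEL pos cells. The part of these markers was not tested. Galnt6 was higher in PP in both cell types. It had 53.7, 44.7 and 48.4 CPM in PP against 34.9, 19.7 and 23.6 in mLN for BCL2 HEL pos cells, and 23.4, 22.9 and 19.2 in PP against 13.8, 11.5 and 10.9 in mLN for HEL pos cells. Its log2 change was 0.90 ± 0.19 (adjusted p = 0.0188) in BCL2 HEL pos cells, lost without PP 922 or 950 or mLN 926 or 950 (0.73 to 0.93, adjusted p 0.0598 to 0.198), and 0.84 ± 0.20 (adjusted p = 0.0130) in HEL pos cells, lost without mLN 392 or 399 (0.78 to 0.81, adjusted p 0.0622 to 0.0630). The HEL pos call of Galnt6 was also lost without PP 399 and Pool together (0.91, adjusted p 0.0945) and in a fit of only the compared libraries (0.87, adjusted p 0.0910). Gcnt1 was higher in PP HEL pos cells, with 57.5, 66.6 and 42.7 CPM against 32.5, 34.1 and 24.2 in mLN (0.85 ± 0.19, adjusted p = 0.00813), and was not called without mLN 399 (0.73, adjusted p 0.0541). B3gnt8 was higher in PP than in mLN HEL pos cells (0.85 ± 0.19, adjusted p = 0.00844), a call lost without mLN 399 (0.69, adjusted p 0.0567). B4galt1 was lower in PP HEL pos cells (-0.49 ± 0.13, adjusted p = 0.0241), a call lost without PP 399 or mLN Pool, 392 or 399 (-0.54 to -0.32, adjusted p 0.0502 to 0.139). The gene listed as B3gnt1, a symbol that has been used for more than 1 enzyme, was lower (-0.81 ± 0.24, adjusted p = 0.0365) and not called without PP 392 or 399 or mLN Pool, 392 or 399 (-0.91 to -0.71, adjusted p 0.0619 to 0.128).

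**Figure D2:**
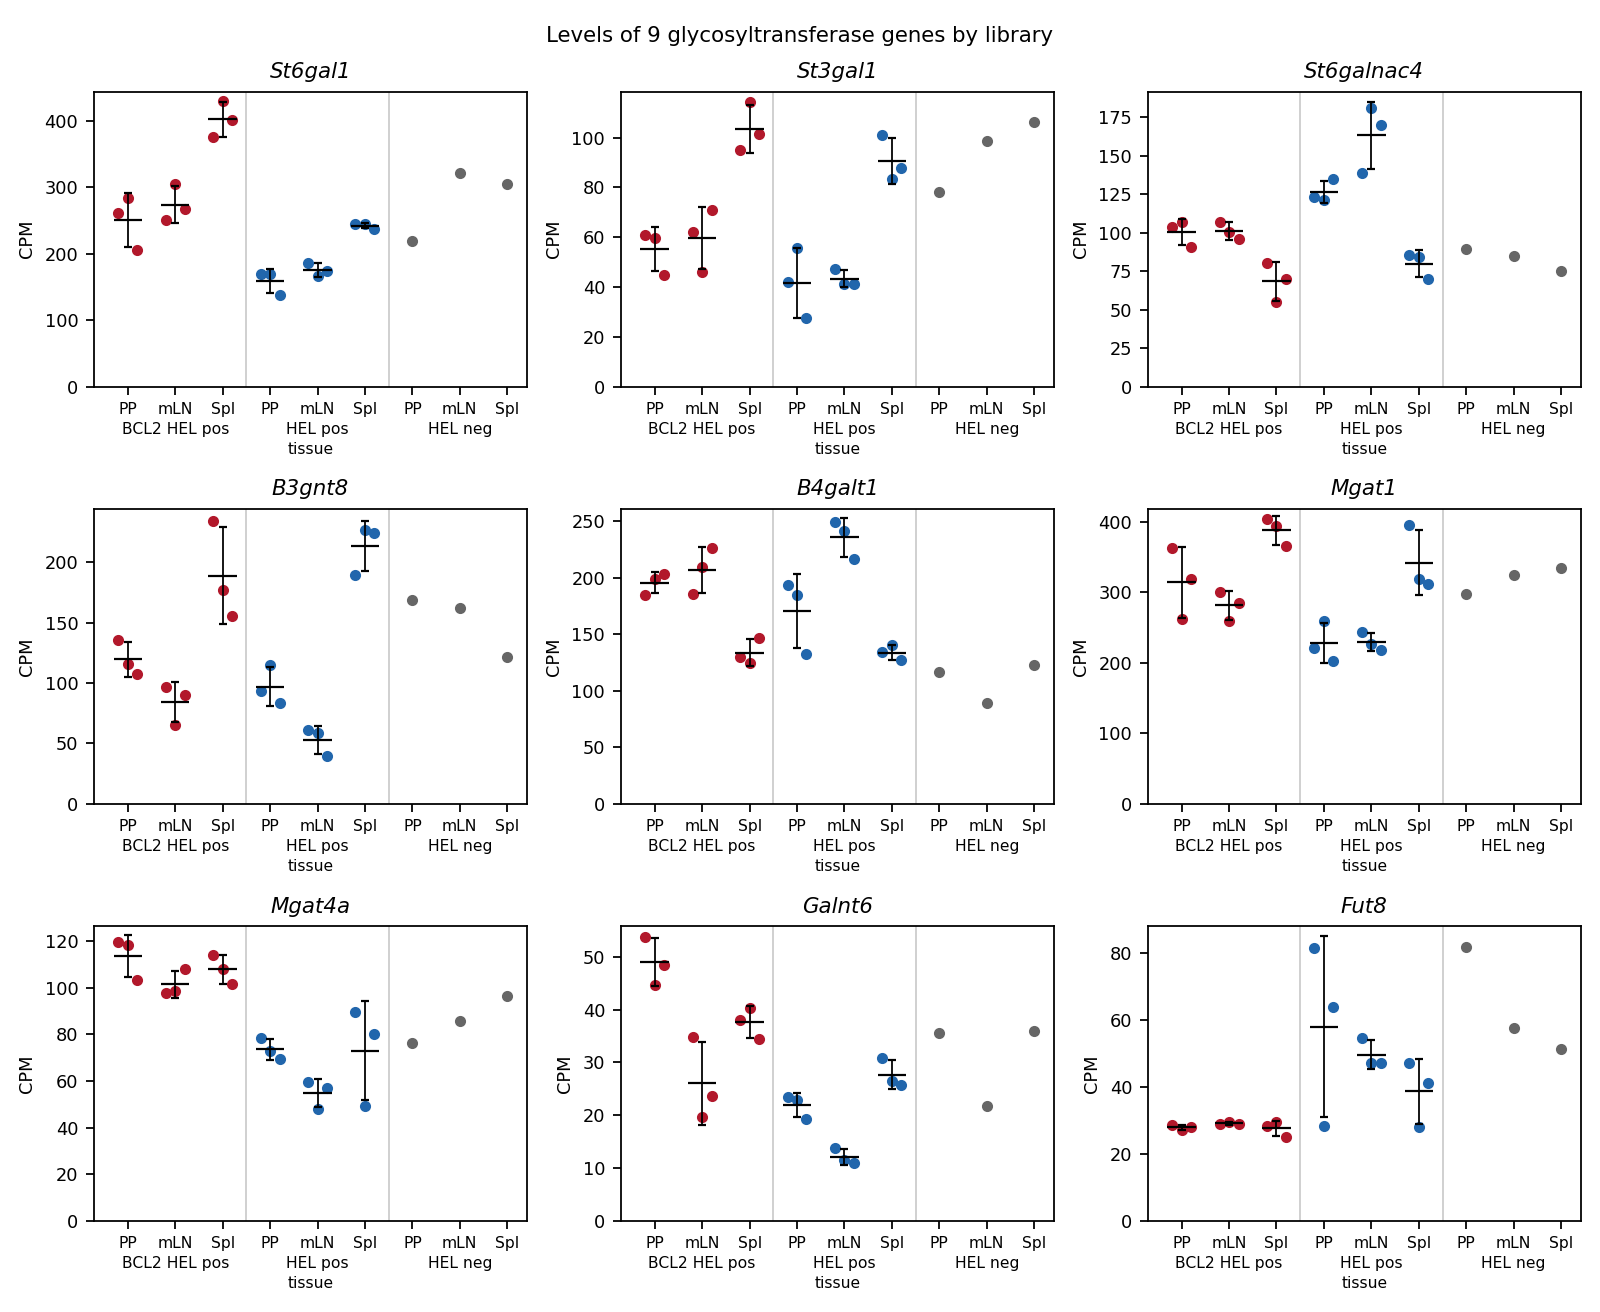
Levels of 9 members in CPM, 1 point per library, with the mean and SD of 3 libraries in black (HEL neg groups have 1 library), for BCL2 HEL pos, HEL pos and HEL neg cells from left to right and PP, mLN and spleen within each. Among BCL2 HEL pos and HEL pos cells St6gal1 and St3gal1 are highest and St6galnac4 lowest in spleen, and Fut8 lies at 25.1 to 29.6 CPM in all BCL2 HEL pos libraries.

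BCL2 HEL pos cells were compared with HEL pos cells within each tissue. In PP 6 members were higher and 3 lower, where 5.33% of all genes tested were called higher and 4.74% lower, 10.1% together. In mLN 5 were higher and 3 lower, where 5.78% of all genes tested were called higher and 5.90% lower, 11.7% together. In spleen 3 were higher and 2 lower, where 4.55% of all genes tested were called higher and 4.82% lower, 9.37% together. The median log2 change of the members was 0.12 in PP, 0.13 in mLN and 0.05 in spleen, against -0.01, -0.01 and 0.00 over all genes. These comparisons share their libraries with the tissue comparisons. St6gal1 and Mgat4a were called higher, and Galnt14 lower, in each tissue. Because HEL pos 392 and 399 differ from all other libraries in Y-linked transcripts, the comparison was repeated against the pooled HEL pos library alone, which is assumed to vary like the other groups. Then 3 of the 9 calls in PP, 2 of 8 in mLN and 2 of 5 in spleen were kept. Epithelial markers were lower in BCL2 HEL pos cells of PP for 6 of 12 tested genes. In mLN, 3 of 7 B cell markers were higher and 6 of 10 T and NK cell markers lower in BCL2 HEL pos cells. In spleen, granulocyte markers summed to 0 to 0.455 CPM in BCL2 HEL pos against 55.0 to 179 in HEL pos libraries, with 4 of 4 lower. The part of these markers was not tested.

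St6gal1 was higher in BCL2 HEL pos cells of every tissue. The means were 250.4 ± 40.4 against 159 ± 18.1 CPM in PP, 274 ± 27.7 against 175 ± 10.4 in mLN and 402 ± 26.5 against 242 ± 3.89 in spleen (SD, n = 3 each; the libraries are given above). No BCL2 HEL pos library overlapped the HEL pos libraries of its tissue. The log2 change was 0.66 ± 0.13 (adjusted p = 0.00306) in PP, 0.63 ± 0.13 (adjusted p = 0.00284) in mLN and 0.75 ± 0.13 (adjusted p = 0.000654) in spleen. Against the pooled HEL pos library alone it was 0.58, adjusted p 0.0907 in PP, 0.55, adjusted p 0.173 in mLN and 0.73, adjusted p 0.0613 in spleen, and in PP without 399 and Pool 0.58, adjusted p 0.101. Each of these fits lost the call of St6gal1. Mgat4a had 119.8, 118 and 103 CPM in BCL2 HEL pos cells against 78.5, 72.8 and 69.6 in HEL pos cells of PP. In mLN the values of Mgat4a were 97.7, 98.5 and 108 against 59.6, 47.9 and 57.1 CPM, and in spleen 114, 108 and 102 against 89.8, 49.2 and 80.1, with HEL pos 392 of spleen far below the other spleen libraries. Its log2 change was 0.87 ± 0.16 (adjusted p = 0.00145) in mLN, called under every setting. It was 0.63 ± 0.16 (adjusted p = 0.0177) in PP, lost without BCL2 HEL pos 922 or 926 or HEL pos 399 (0.59 to 0.60, adjusted p 0.0522 to 0.0661), and 0.58 ± 0.16 (adjusted p = 0.0293) in spleen, lost without BCL2 HEL pos 922, 926 or 950 or HEL pos 392 (0.34 to 0.59, adjusted p 0.0671 to 0.160). Without HEL pos 392 the spleen change of Mgat4a was 0.34, adjusted p 0.160.

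Galnt6 was higher in BCL2 HEL pos cells of PP and mLN. It had 53.7, 44.7 and 48.4 CPM against 23.4, 22.9 and 19.2 in HEL pos cells of PP, and 34.9, 19.7 and 23.6 against 13.8, 11.5 and 10.9 in mLN. Galnt6 changed by 1.16 ± 0.19 (adjusted p = 0.000891) in PP, called under every setting, and 1.10 ± 0.20 (adjusted p = 0.00109) in mLN, lost against the pooled library alone (0.92, adjusted p 0.121). In spleen it had 38.1, 40.4 and 34.4 CPM in BCL2 HEL pos cells against 30.9, 26.5 and 25.7 in HEL pos cells, without overlap, but did not pass (0.46 ± 0.19, adjusted p = 0.138). Fut8, the core fucosyltransferase, was lower in PP and mLN. Its BCL2 HEL pos libraries were nearly equal, at 28.7, 27.1 and 28.1 CPM in PP, 28.9, 29.6 and 29.0 in mLN and 28.2, 29.5 and 25.1 in spleen. In HEL pos cells it had 81.6, 28.4 and 64.0 CPM in PP, 54.6, 47.1 and 47.1 in mLN and 47.0, 28.0 and 41.1 in spleen, and library 392 stood at the BCL2 HEL pos level in PP and spleen. The log2 change of Fut8 was -1.05 ± 0.25 (adjusted p = 0.0113) in PP, which was the called member there whose groups overlapped. That call was lost without HEL pos Pool (-0.71, adjusted p 0.0700), and without PP 399 and Pool the change was -0.01, adjusted p 1.00. In mLN the change was -0.78 ± 0.25 (adjusted p = 0.0488), lost without BCL2 HEL pos 922, 926 or 950 or HEL pos Pool, 392 or 399 (-0.81 to -0.71, adjusted p 0.102 to 0.147).

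B3gnt5 and B3gnt8 were higher in BCL2 HEL pos cells of mLN. B3gnt5 had 213, 228 and 218 CPM against 137, 130.2 and 141 in HEL pos cells (0.68 ± 0.17, adjusted p = 0.0120), a call lost without HEL pos 392 (0.65, adjusted p 0.0576). B3gnt8 had 97.1, 65.2 and 90.5 CPM against 60.8, 58.5 and 39.4 (0.65 ± 0.19, adjusted p = 0.0282), a call lost without BCL2 HEL pos 922 or 950 or HEL pos 392 or 399 (0.50 to 0.74, adjusted p 0.0512 to 0.155). St6galnac4 was lower in BCL2 HEL pos cells of mLN, at 107, 100.3 and 95.8 CPM against 139, 181 and 170.0 (-0.71 ± 0.14, adjusted p = 0.00233), and was not called against the pooled library alone (-0.46, adjusted p 0.239). In PP, Fut11 was higher, with 35.0, 35.8 and 47.7 CPM in BCL2 HEL pos cells against 25.2, 25.5 and 15.9 in HEL pos cells (0.83 ± 0.19, adjusted p = 0.00838), and was not called without BCL2 HEL pos 950 (0.68, adjusted p 0.0534). B3gnt1 was higher in PP (0.95 ± 0.24, adjusted p = 0.0131), with 16.5, 18.2 and 16.5 CPM in BCL2 HEL pos cells against 10.7, 7.55 and 8.05 in HEL pos cells. Mgat1 was higher in PP (0.46 ± 0.14, adjusted p = 0.0333), a call lost without BCL2 HEL pos 922 or 950 or HEL pos Pool or 399 (0.36 to 0.47, adjusted p 0.0656 to 0.139). These calls in PP were also lost without PP 399 and Pool, where the change was 0.65, adjusted p 0.179 for Fut11, 1.19, adjusted p 0.0724 for B3gnt1 and 0.29, adjusted p 0.456 for Mgat1.

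In spleen, B4galt5 was higher, with 19.8, 21.3 and 32.8 CPM in BCL2 HEL pos cells against 8.51, 15.7 and 10.3 in HEL pos cells (1.13 ± 0.29, adjusted p = 0.0161). The call of B4galt5 was lost without BCL2 HEL pos 950 or HEL pos Pool or 399 (0.84 to 1.06, adjusted p 0.0679 to 0.119). Galnt10 was lower, with 24.0, 15.5 and 22.0 CPM against 57.0, 29.8 and 33.3 (-0.96 ± 0.29, adjusted p = 0.0396), and was not called without BCL2 HEL pos 922, 926 or 950 or HEL pos Pool (-1.09 to -0.62, adjusted p 0.0591 to 0.206). Galnt13 and Galnt14 are GalNAc transferases at very low levels in these cells, and the BCL2 HEL pos libraries alone would not have had enough counts for either to be tested. Both could be tested because of the HEL pos libraries, the group where they are high, so their calls are a description and no support. Galnt14 had 0.128, 0 and 0 CPM in BCL2 HEL pos cells against 0.883, 0.604 and 1.05 in HEL pos cells of PP, 0.279, 0.243 and 0.280 against 0.625, 3.34 and 2.80 in mLN, and 0.288, 1.96 and 0.398 against 3.47, 9.23 and 6.55 in spleen. The pooled HEL pos library had the lowest level of Galnt14 among the HEL pos libraries of mLN and of spleen. Galnt14 changed by -3.03 ± 0.86 (adjusted p = 0.0248) in mLN, lost without BCL2 HEL pos 922, 926 or 950 or HEL pos 392 or 399 (-3.06 to -2.61, adjusted p 0.0846 to 0.120). It was -2.78 ± 0.74 (adjusted p = 0.0215) in spleen, lost without BCL2 HEL pos 922 or 950 or HEL pos 392 or 399 (-2.76 to -2.38, adjusted p 0.0605 to 0.105). In PP the ratio of 1 count to 16 was 0.0449, with a 95% exact counting interval of 0.00107 to 0.289 that covers counting error only. The PP call of Galnt14 (adjusted p = 0.0349) was lost without BCL2 HEL pos 926 or 950 or HEL pos Pool or 399 (-3.94 to -3.37, adjusted p 0.0551 to 0.129). Galnt13 had no count in the PP BCL2 HEL pos libraries and 4.71, 0.302 and 1.75 CPM in PP HEL pos cells, 44 counts in all. On summed counts it was thus at least 20.4-fold lower against 3 counts over the group (adjusted p = 0.0120). That bound covers counting error only. Of the 44 counts 32 came from Pool, 10 from 399 and 2 from 392, so it does not hold for 392. The call was lost without BCL2 HEL pos 950 (adjusted p 0.0594) or without PP 399 and Pool, which held the highest values.

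**Figure D3:**
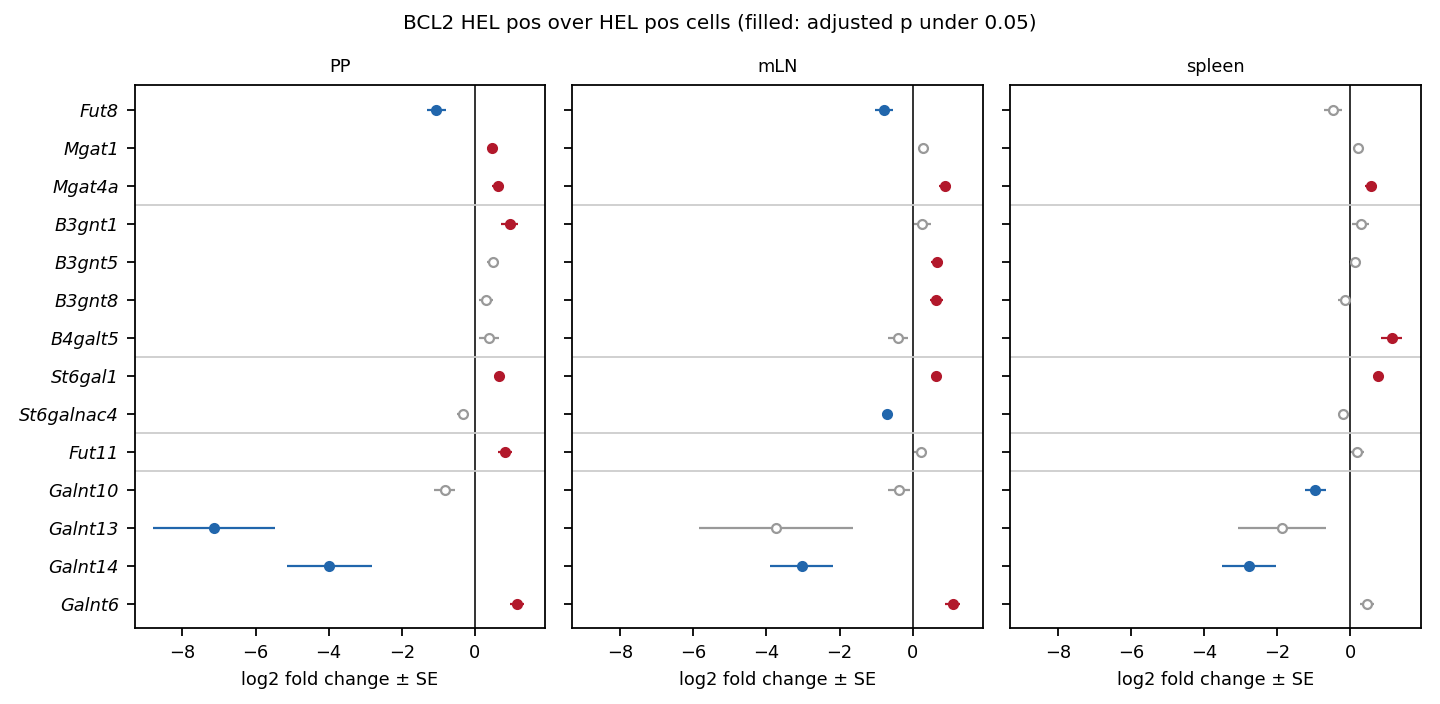
Log2 fold change of BCL2 HEL pos over HEL pos cells, with its standard error, for each member called in at least 1 tissue, in PP, mLN and spleen from left to right, with filled points at an adjusted p under 0.05 (edgeR). St6gal1 (0.66, 0.63 and 0.75) and Mgat4a (0.63, 0.87 and 0.58) are filled and right of 0 in all 3 panels, and the fitted position of Galnt13 in PP and mLN, where BCL2 HEL pos cells had no count, depends on the prior count.

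Whether a tissue difference itself differed between BCL2 HEL pos and HEL pos cells was tested as an interaction. No member passed for PP against spleen, where 0.00876% of all genes tested were called higher and 0% lower, 0.00876% together. Nor did any pass for mLN against spleen, where 0.219% of all genes tested were called higher and 0.166% lower, 0.385% together. At an unadjusted p under 0.05 there were 6 members for PP and 8 for mLN, and DESeq2 called none for PP and 1 for mLN. The matching shares of all genes are not given here, so these counts cannot be set against a background. For mLN the interactions were -1.53 ± 0.40 (adjusted p = 0.116) on the log2 scale for B4galt5, 0.93 ± 0.27 (adjusted p = 0.153) for Gcnt1 and 0.81 ± 0.26 (adjusted p = 0.245) for B3gnt8 (edgeR). With library number as a block these 3 were called for mLN (adjusted p = 0.0207, 0.0186 and 0.0405), where 1.68% of all genes tested were, and none for PP, where 0.420% were, although not every same-numbered pair of mLN and spleen HEL pos libraries deviated together. For PP the interaction of Galnt6 was 0.70 ± 0.27 (adjusted p = 0.432). For the other members a call in one cell type with none in the other, as for Gcnt1 in PP, is not shown to be a difference between the cell types.

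BCL2 HEL pos and HEL pos cells were each compared with HEL neg cells, in fits with tissue as a covariate, since there is a single HEL neg pool for each tissue. Both comparisons use the same 3 pools. Among 43 members tested, 3 were higher and 5 lower in BCL2 HEL pos cells, where 6.56% of all genes tested were called higher and 8.10% lower, 14.7% together. Among 46 tested, 1 was higher and 5 lower in HEL pos cells, where 3.46% of all genes tested were called higher and 5.22% lower, 8.68% together. The median log2 change of the members was -0.04 in BCL2 HEL pos and -0.10 in HEL pos cells, against 0.01 and 0.02 over all genes. When only the 6 pooled libraries were used, none of the 6 HEL pos calls was kept and edgeR called no member. There 9 members had an unadjusted p under 0.05, for which the share of all genes is not given here. With 6 libraries in place of 12, that fit has less to estimate the spread from. A lost call in it therefore does not show that a difference is absent. The HEL pos libraries left out, 392 and 399, are those that differ from the pools in Y-linked transcripts. The part of this in the lost calls was not tested. Epithelial markers were lower in BCL2 HEL pos cells for 7 of 9 tested genes, and T and NK cell markers for 7 of 9. Germinal centre markers summed to 71.1 to 167 CPM in the BCL2 HEL pos and HEL pos libraries, against 394 to 1009 CPM in the HEL neg pools, with 7 of 7 lower in both comparisons, and their part was not tested. St6gal1 was lower in HEL pos than in HEL neg cells (-0.56 ± 0.12, adjusted p = 0.00974, edgeR). The HEL neg pools had 219 CPM of St6gal1 in PP, 321 in mLN and 305 in spleen, above all HEL pos libraries of the same tissue, and the call was lost without the PP HEL neg pool or the mLN HEL neg pool (-0.60 to -0.40, adjusted p 0.0587 to 0.145). St3gal1 was lower in HEL pos cells too (-0.79 ± 0.19, adjusted p = 0.0175), with 78.2 CPM in the PP pool, 98.6 in the mLN pool and 106 in the spleen pool, and was not called without the PP HEL neg pool or the mLN HEL neg pool (-0.72 to -0.58, adjusted p 0.142 to 0.224). In BCL2 HEL pos cells neither St6gal1 (0.11 ± 0.13, adjusted p = 0.661) nor St3gal1 (-0.44 ± 0.15, adjusted p = 0.0581) passed.

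Fut8 was lower in BCL2 HEL pos than in HEL neg cells (-1.16 ± 0.13, adjusted p = 1.27e-05, edgeR), called under every setting. The pools had 81.7 CPM of Fut8 in PP, 57.7 in mLN and 51.3 in spleen, and in HEL pos cells the change did not pass (-0.37 ± 0.23, adjusted p = 0.360). Gcnt3, a core 2 and core 4 branching enzyme known from mucin-producing epithelium, was lower in BCL2 HEL pos cells (-3.92 ± 0.80, adjusted p = 0.00339) and in HEL pos cells (-4.60 ± 0.85, adjusted p = 0.00448). It was at most 1.28 CPM in BCL2 HEL pos and HEL pos libraries, against 6.63 CPM in the PP pool, 2.39 in the mLN pool and 1.91 in the spleen pool. Gcnt3 had enough counts to be tested because of the HEL neg pools, the group where it is high, so its calls are a description and no support. Epithelial transcripts were highest in the PP pool, and their part was not tested. The HEL pos call of Gcnt3 was lost without the PP HEL neg pool or the mLN HEL neg pool (-4.34 to -3.96, adjusted p 0.0785 to 0.110), while the BCL2 HEL pos call was kept under every setting. Galnt14 was higher in HEL pos cells (adjusted p = 0.00408), which had counts in all 9 libraries, whereas the 3 HEL neg pools had none. It could be tested because of the HEL pos libraries, where it is high, and it did not have enough counts to be tested in the pooled libraries alone. Against 3 counts in the pool, the ratio was at least 1.64-fold higher in PP, 4.89-fold in mLN and 14.9-fold in spleen. Galnt6 was lower in HEL pos cells (-0.64 ± 0.16, adjusted p = 0.0263), a call lost without mLN HEL pos 392 or the PP HEL neg pool or the mLN HEL neg pool (-0.63 to -0.54, adjusted p 0.0509 to 0.215). St6galnac3, which sialylates GalNAc like St6galnac4, was lower in HEL pos cells (-1.64 ± 0.44, adjusted p = 0.0319) and not called without mLN HEL pos 392 or spleen HEL pos 392 or the PP HEL neg pool or the mLN HEL neg pool or the spleen HEL neg pool (-1.70 to -1.53, adjusted p 0.0501 to 0.193).

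B4galt1 was higher in BCL2 HEL pos than in HEL neg cells (0.65 ± 0.15, adjusted p = 0.00875, edgeR), with 116 CPM in the PP pool, 89.5 in the mLN pool and 123 in the spleen pool. That call was lost without the PP HEL neg pool or the mLN HEL neg pool (0.41 to 0.62, adjusted p 0.0556 to 0.0951); in HEL pos cells the change of B4galt1 did not pass (0.65 ± 0.19, adjusted p = 0.0508). B3gnt2 was higher in BCL2 HEL pos cells (0.37 ± 0.11, adjusted p = 0.0270), a call lost without spleen BCL2 HEL pos 950 or the PP HEL neg pool or the spleen HEL neg pool (0.26 to 0.37, adjusted p 0.05002 to 0.188). B3gnt5 was higher (0.47 ± 0.15, adjusted p = 0.0432) and not called without PP BCL2 HEL pos 922, 926 or 950 or mLN BCL2 HEL pos 926 or 950 or spleen BCL2 HEL pos 922 or 926 or the PP HEL neg pool or the spleen HEL neg pool (0.27 to 0.49, adjusted p 0.0524 to 0.312). B3gnt3, which extends core 1 O-glycans, was lower (-1.42 ± 0.43, adjusted p = 0.0361) and not called without PP BCL2 HEL pos 922, 926 or 950 or mLN BCL2 HEL pos 922 or spleen BCL2 HEL pos 926 or the PP HEL neg pool or the mLN HEL neg pool (-1.62 to -0.54, adjusted p 0.0525 to 0.524). Its level was 12.9 CPM in the PP pool, 5.41 in the mLN pool and 3.54 in the spleen pool. Galnt12 was lower (-1.37 ± 0.38, adjusted p = 0.0235) and not called without PP BCL2 HEL pos 926 or the PP HEL neg pool or the mLN HEL neg pool (-1.33 to -0.60, adjusted p 0.0554 to 0.392), with 34.8 CPM in the PP pool, 30.3 in the mLN pool and 9.13 in the spleen pool. Galnt10 was lower (-1.17 ± 0.25, adjusted p = 0.00427), a call lost without the PP HEL neg pool or the mLN HEL neg pool (-0.93 to -0.84, adjusted p 0.0673 to 0.0808), with 43.5, 44.4 and 18.8 CPM in the same pools. For all of these the PP pool, which also had the most epithelial transcripts of all libraries, was among the libraries on which the call rested.

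**Figure D4:**
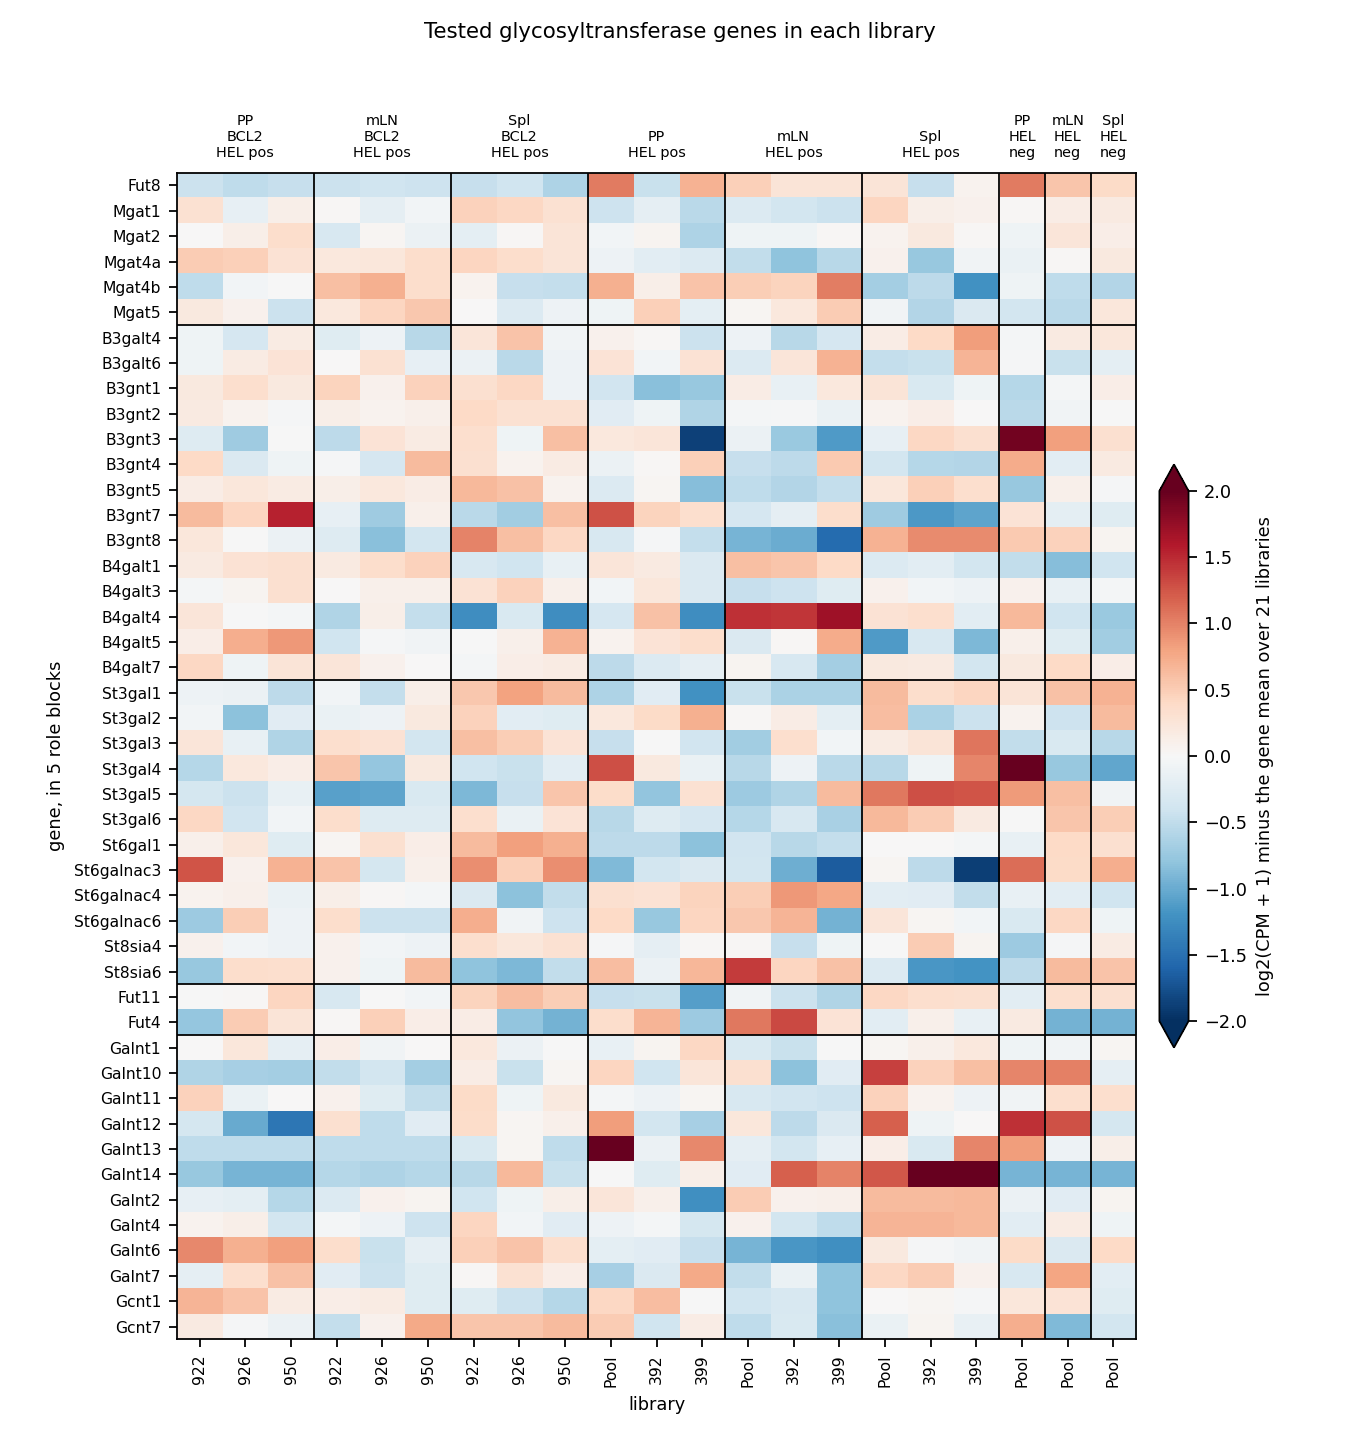
Log2(CPM + 1) of each tested member in each library, minus the mean of that gene over 21 libraries, with colours clipped at 2 in either direction and lines between role blocks (rows) and between the 9 groups (columns). B3gnt8 and Galnt6 are lowest in mLN HEL pos cells, Mgat4a is above its mean in all BCL2 HEL pos libraries, and low-level genes such as Galnt13 and Galnt14 vary from library to library.

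Genes that work beside these enzymes were counted in the same fits, from 5 lists. Their counts stand beside the shares of all genes tested, which were 7.94% higher and 7.43% lower in PP and 12.9% higher and 11.5% lower in mLN against spleen HEL pos cells. Of 24 tested genes of sugar nucleotide supply, 3 were higher and 1 lower in PP than in spleen HEL pos cells (median log2 change 0.13), and 7 were higher and 2 lower in mLN (median 0.06); the PP count is near the background. Uap1l1, a relative of the enzyme that makes UDP-GlcNAc, had 141, 155 and 127 CPM in PP and 262, 245 and 225 in mLN, against 40.2, 53.1 and 53.9 in spleen. It was higher in PP (1.52 ± 0.16, adjusted p = 3.79e-06) and in mLN (2.34 ± 0.17, adjusted p = 4.71e-09, edgeR). In BCL2 HEL pos cells Uap1l1 was higher in PP (1.47 ± 0.16, adjusted p = 7.27e-06) and in mLN (1.82 ± 0.16, adjusted p = 6.25e-07) as well. Of 11 trimming enzymes of N-glycans, 3 were higher and 1 lower in mLN HEL pos cells; the lower was Man2a1, the mannosidase that acts after Mgat1 (-1.28 ± 0.19, adjusted p = 2.73e-05). Of 13 other Golgi transferases, none was higher and 3 were lower in mLN HEL pos cells, in all a share near the background of 24.5%. C1galt1, which makes the core 1 O-glycan that St3gal1 caps, was lower in mLN (-1.49 ± 0.26, adjusted p = 0.000221) and in PP (-0.77 ± 0.26, adjusted p = 0.0466), where it was not called without PP Pool or 399 or spleen 392 (-0.64 to -0.55, adjusted p 0.151 to 0.202) or without PP 399 and Pool together (-0.22, adjusted p 0.733). Ggta1, which caps N-acetyllactosamine with alpha-galactose, was lower in PP (-0.86 ± 0.18, adjusted p = 0.00198) and in mLN (-1.53 ± 0.18, adjusted p = 2.53e-06).

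Of 12 tested genes of sialidases, sialic acid modification and fucosidases, 3 were higher and 3 lower in mLN HEL pos cells than in spleen, where 24.5% of all genes tested were called, and 1 was lower in PP, where 15.4% were. Cmah, which converts N-acetyl to N-glycolyl sialic acid, was among those lower in mLN (-1.05 ± 0.13, adjusted p = 5.39e-06, edgeR). The list drawn up for lectins that read capped glycans also holds genes that are not, such as Selplg, a ligand of selectins. Of its 13 tested genes, 1 was higher and 6 lower in PP (median log2 change -0.18), and 5 were lower in mLN (median -0.25). Selplg was among those lower in PP, so these counts are not counts of lectins alone. Cd22, the receptor for St6gal1 products and also a B cell marker, had 782, 778 and 682 CPM in PP and 522, 522 and 540.0 in mLN, against 1250.2, 1012 and 1228 in spleen (-0.64 ± 0.12, adjusted p = 0.000818 in PP and -1.12 ± 0.12, adjusted p = 7.38e-07 in mLN). Siglecg, another inhibitory receptor for sialic acid on B cells, was lower in PP (-0.93 ± 0.11, adjusted p = 1.34e-05) and mLN (-1.24 ± 0.11, adjusted p = 1.28e-07). In BCL2 HEL pos against HEL pos cells, 3 of the 13 other Golgi transferases were higher in PP, 3 in mLN and 2 in spleen, where 5.33%, 5.78% and 4.55% of all genes tested were higher, and none was lower. Calls among genes of sugar nucleotide supply went both ways. Galk1 was lower in every tissue (-0.70 ± 0.21 in PP, -0.78 ± 0.21 in mLN and -1.22 ± 0.22 in spleen). Slc35a1 in PP and Nans in mLN were lower too, whereas Slc35c1 in PP and Gnpnat1 in spleen were higher. Lfng, which extends O-fucose on Notch, had 27.0, 28.6 and 29.3 CPM in spleen BCL2 HEL pos cells against 7.05, 6.77 and 12.1 in HEL pos cells (1.74 ± 0.26, adjusted p = 0.000213). B4galnt1, a ganglioside enzyme, had 582, 542 and 663 CPM against 338, 299 and 332 in the same groups (0.90 ± 0.13, adjusted p = 0.000151). In mLN, Ggta1 (1.37 ± 0.18, adjusted p = 5.70e-05) and Cd22 (0.83 ± 0.12, adjusted p = 0.000124) were higher in BCL2 HEL pos cells.

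Of the 47 members tested in any fit, 16 passed in none of the comparisons of groups without a block. Several of them were well expressed and moved little: the log2 changes ranged from -0.35 to 0.35 for Galnt1, from -0.28 to 0.34 for Mgat2, from -0.35 to 0.26 for St8sia4 and from -0.34 to 0.43 for B4galt3, another N-acetyllactosamine synthase. Others were scarce, such as B4galt4, with 0.558, 1.58 and 0.700 CPM in mLN BCL2 HEL pos cells, against 5.50, 5.40 and 6.66 in mLN HEL pos cells (-2.61 ± 0.86, adjusted p = 0.0525, edgeR). St3gal4 had 37.0 CPM in the PP HEL neg pool, against 2.05 to 14.3 CPM in all other libraries. The 30 members not tested in the 18 libraries were at or below 6.63 CPM in every library, and 26 of them had their highest level in a PP library. Mgat3, which adds the bisecting GlcNAc, reached 4.25 CPM in the PP HEL neg pool and had no count in the BCL2 HEL pos libraries. Galnt3 reached 5.07 CPM in PP HEL pos 399 and at most 0.595 CPM elsewhere, and Gcnt2, the I-branching enzyme, was highest at 1.53 CPM in the PP HEL neg pool. Epithelial transcripts were highest in these PP libraries, and their part in such values was not tested.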

How the data were processed

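RNA-seq counts of 23337 gene symbols in 21 libraries were used as deposited by the authors, raw and not normalised. STAR, HTSeq, DESeq2 and mm10 are named in the submitters' processing notes without roles or versions. The labels' protocols give sorted cells and single-end reads of 50 bases, and name both TruSeq and Nextera XT kits.

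Counts were tested with edgeR 4.0.16 in R 4.3.3 (TMM scaling, filterByExpr, quasi-likelihood test, two-sided, Benjamini-Hochberg over all genes tested, called at an adjusted p under 0.05). A fit of 18 libraries in 6 groups gave 11 comparisons, 9 between groups and 2 interactions, over 11419 genes. Fits of 12 libraries with tissue as covariate gave those against HEL neg, over 11406 genes (HEL pos) and 10987 genes (BCL2 HEL pos). The script was tested on simulated counts. Alternatives were DESeq2 1.42.0, its size factors, no count filter, each library left out, only the compared libraries, all 21 libraries, without or with only the pools, without PP HEL pos 399 and Pool, and a block by library number. Numbers were taken to pair libraries of 2 tissues where the deviations of all 3 same-numbered pairs from their group means correlated over 0.1. This held for PP with spleen in HEL pos (0.119 to 0.277) and BCL2 HEL pos cells (0.102 to 0.220) and for mLN with spleen in BCL2 HEL pos cells (0.149 to 0.234), but not for mLN with spleen in HEL pos cells (0.0318 to 0.368) or PP with mLN (from 0.0671 and 0.0882). Exon overlaps are from GENCODE M21. Named were 20 fixed members, at most 8 further called members without overlap per comparison, and at most 3 called genes per list. The members and lists were chosen with earlier results of these data known.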

Additional observations from a re-analysis of the deposited data

Results flagged for a closer look

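A difference between groups was noted for Cd22, the receptor for alpha-2,6-sialylated glycans and also a B cell marker. Its difference between mLN and spleen was not the same in BCL2 HEL pos as in HEL pos cells, with an interaction of 0.81 ± 0.17 on the log2 scale (SE, adjusted p = 0.0331, edgeR). In mLN it had 988, 942 and 920.1 CPM in BCL2 HEL pos cells against 522, 522 and 540.0 in HEL pos cells, and in spleen 1235, 1133 and 1141 against 1250.2, 1012 and 1228. Leaving out any single library except spleen HEL pos 392 ended the call, with interactions of 0.77 to 0.86 and adjusted p of 0.0567 to 0.115. Without the pooled HEL pos libraries the interaction was 0.76, adjusted p 0.0858. Of the 7 B cell markers 2, Cd22 among them, were called higher in this interaction, where 0.219% of all genes tested were called higher. No explanation of this difference was tested.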

How the results depend on the processing

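Of 90 calls of a member in a comparison, 23 were kept under every alternative tried, and no call changed direction in an alternative that gave a value. DESeq2, its size factors and, for BCL2 HEL pos against HEL neg cells, a fit of all libraries left the counts of calls within a factor of 1.5, except that DESeq2 gave 1 call for the interaction of cell type with mLN against spleen, in place of 0. The cause of the changes below was not tested.

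Without a filter on low counts, the members called were 2 in place of 1 for PP against mLN in BCL2 HEL pos cells, 8 in place of 5, and 14 in place of 9, for BCL2 HEL pos against HEL pos cells of spleen and of PP, 2 in place of 0 for the mLN interaction, 11 in place of 6 for HEL pos and 13 in place of 8 for BCL2 HEL pos against HEL neg cells. Fits of only the compared libraries gave 2 in place of 5 for PP against mLN in HEL pos cells and 1 in place of 9 for BCL2 HEL pos against HEL pos cells of PP. Without the pooled HEL pos libraries 10 of 16 were left for PP against spleen and 3 of 5 for PP against mLN in HEL pos cells. Without PP HEL pos 399 and Pool the counts were 1 for PP against spleen and 2 for PP against mLN in HEL pos cells, and 1 for BCL2 HEL pos against HEL pos cells of PP. Against the pooled HEL pos library alone BCL2 HEL pos cells gave 5 calls in PP, 2 in place of 8 in mLN and 3 in spleen. The 6 pooled libraries alone gave 0 calls for HEL pos against HEL neg cells by edgeR. There 9 members had an unadjusted p under 0.05, without the matching share of all genes.

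Leaving out each library in turn gave 12 to 18 calls for PP against spleen, 15 to 18 for mLN against spleen and 0 to 6 for PP against mLN in HEL pos cells. In BCL2 HEL pos cells the same comparisons gave 3 to 7, 3 to 6 and 0 to 1. BCL2 HEL pos against HEL pos cells gave 5 to 14 in PP, 4 to 7 in mLN and 2 to 4 in spleen. Against HEL neg cells the range was 1 to 11 for HEL pos cells, with 11 without the spleen pool and 1 without the mLN or the PP pool, and 2 to 10 for BCL2 HEL pos cells, with 2 without the PP pool and 4 without the mLN pool. Both interactions stayed at 0.

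With library number as a block, 12 members were called in place of 7 for PP against spleen and 2 in place of 1 for PP against mLN in BCL2 HEL pos cells, and 3 in place of 0 for the mLN interaction; other counts stayed within a factor of 1.5, and every call of the unblocked fit was kept.

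Depth limits the genes near 3 counts a library, such as Galnt13, Galnt14, Mgat4b and Gcnt3, whose differences rest on few counts. Groups of 3 libraries and HEL neg groups of 1 limit all comparisons.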
